A study of Mus musculus with 32 samples.

Results

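p53 is the transcription factor that answers DNA damage and other stress, and the genes followed here are p53 itself (Trp53), the classical targets Mdm2, Ccng1, Bax, Btg2 and Perp, and the stress genes Gadd45a and Gadd45b. Members were chosen by name: every probe set that the array's annotation table assigned to 1 of these 8 genes alone was taken, and Cdkn1a, the p53 target that encodes the cell cycle inhibitor p21, was kept out. For 6 of the 8 genes such a probe set was found, 7 probe sets in all among 12422 (8251 genes). Mdm2 was measured by 98110_at, Ccng1 by 160127_at, Btg2 by 101583_at, Gadd45a by 102292_at, Perp by 97825_at, and Gadd45b by 161666_f_at and 102779_at, of which the first was the brighter and stands for the gene in all counts. No probe set in the annotation table used here names Trp53 or Bax, so neither was analysed here. The RNA came from mouse C2C12 cells, an established line of skeletal myoblasts that stop dividing and fuse into myotubes once growth medium is replaced by differentiation medium. The TSA arm held 20 arrays in 10 groups of 2: control cells left untreated and cells given trichostatin A (TSA), which blocks zinc-dependent histone deacetylases at a dose that no source used here states. Each was sampled at 0 h, still in growth medium, and then 4, 12, 24 and 48 h into differentiation medium. The Sir2 arm held 12 arrays in 4 groups of 3: cells with the empty vector pHan and cells with pHan carrying Sir2, a deacetylase that uses NAD and has Sirt1 as its mouse counterpart, after 12 and 36 h of differentiation medium. Every group was of the C2C12 line, all groups of the Sir2 arm carried the pHan vector, and nothing in the labels says whether replicates were separate cultures, so that a p-value covers only the spread among these arrays, which may be technical.

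p53 is held at a low level by Mdm2, a ubiquitin ligase that marks it for degradation and is itself a p53 target, and cyclin G1 (Ccng1) acts in the same feedback. Other targets stop the cell cycle, such as Btg2, a partner of the deadenylase complex that shortens mRNA tails, or drive cell death, such as the mitochondrial pore protein Bax and the membrane protein Perp. The Gadd45 proteins bind cell cycle and DNA repair factors and a kinase upstream of the p38 pathway, and Gadd45a is known in skeletal muscle for its induction after denervation and fasting. p53 is active when acetylated, and Sirt1 as well as Hdac1 can remove its acetyl groups.

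Promoter windows are shown for Gadd45a, Gadd45b, Mdm2 and Ccng1, which were called in comparisons described here, so that their sequence can be read beside the values. RefSeq (GRCm38.p6) held a window of 250 bases before to 50 bases after the gene start for 7 of the 8 genes, all but Perp. These windows are 5′ to 3′ on the gene's strand, and capitals mark matches, on either strand, to 4 motifs: the CCAAT box (letters CCAAT), the GC box (letters GGGCGG), the octamer recognised by POU factors (letters ATTTGCAT) and the p53 half-site consensus.
Gadd45a (chr6:67037358-67037657, minus strand): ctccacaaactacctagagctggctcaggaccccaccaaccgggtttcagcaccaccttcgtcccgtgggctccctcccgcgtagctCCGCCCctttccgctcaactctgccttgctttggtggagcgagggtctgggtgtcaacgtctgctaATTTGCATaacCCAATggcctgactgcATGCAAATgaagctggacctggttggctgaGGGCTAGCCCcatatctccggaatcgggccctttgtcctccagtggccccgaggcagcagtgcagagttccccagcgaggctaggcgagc
Gadd45b (chr10:80929841-80930140, plus strand): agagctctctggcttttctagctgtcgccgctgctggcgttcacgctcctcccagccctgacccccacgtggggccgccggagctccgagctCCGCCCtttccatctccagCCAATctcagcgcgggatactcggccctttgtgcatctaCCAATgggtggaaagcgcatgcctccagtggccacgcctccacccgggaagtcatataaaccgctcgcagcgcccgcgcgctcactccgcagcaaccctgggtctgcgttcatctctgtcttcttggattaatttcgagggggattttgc
Mdm2 (chr10:117710709-117711008, minus strand): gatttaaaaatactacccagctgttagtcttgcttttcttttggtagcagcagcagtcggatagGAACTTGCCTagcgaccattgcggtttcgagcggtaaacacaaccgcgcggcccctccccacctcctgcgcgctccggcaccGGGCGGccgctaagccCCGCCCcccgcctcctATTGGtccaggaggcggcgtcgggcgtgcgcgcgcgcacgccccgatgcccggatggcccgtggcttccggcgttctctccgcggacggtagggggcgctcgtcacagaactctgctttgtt
Ccng1 (chr11:40755237-40755536, minus strand): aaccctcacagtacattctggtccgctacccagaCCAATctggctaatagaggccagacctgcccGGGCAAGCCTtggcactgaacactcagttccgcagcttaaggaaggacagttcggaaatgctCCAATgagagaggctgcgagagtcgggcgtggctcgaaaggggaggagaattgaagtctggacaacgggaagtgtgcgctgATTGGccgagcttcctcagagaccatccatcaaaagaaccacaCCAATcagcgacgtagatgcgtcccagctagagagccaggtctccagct
Among 32851 windows of the same length the CCAAT box was found in 37.4%, the GC box in 35.7%, the octamer in 1.74% and the p53 half-site in 8.36%. Of the 7 genes with a window 6 held a CCAAT box, 5 a GC box, 5 a p53 half-site (Trp53, Mdm2, Ccng1, Bax and Gadd45a) and 1, Gadd45a, an octamer. The Gadd45a window had the octamer at bases -97 to -90 and again, on the opposite strand, at -70 to -63, with a CCAAT box between them at -86 to -82. Gadd45b had 2 CCAAT boxes and 1 GC box and neither of the other motifs, and Ccng1 had 4 CCAAT boxes and no GC box. No motifs overlapped in the windows shown, and in that of Btg2 a pair of GC boxes shared 1 base. A match describes letters in this window and does not show that a factor binds there.

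The arrays were even within each arm. TSA-arm medians of intensity lay between 253 and 287, Sir2-arm medians between 50.4 and 57.6. On TSA-arm arrays 21.0% to 24.2% of all values did not exceed 0. With 2 or 3 arrays in a group, precision is limited. All 8 skeletal muscle markers (among them Myod1, Myog and Ckm) lay above the filter on dim probe sets in both arms. None of the 5 leukocyte markers did, and Cd3e was at or below 0 on all arrays of the TSA arm. Of the endothelial markers 1 of 5 passed in the arm with TSA and 0 of 5 in the other, of the measured adipocyte markers 1 of 4 in each, and of the bone and cartilage markers 3 of 4 and 1 of 4. Sirt1, the check of the Sir2 labels, stood at 20.3, 9.48 and 14.2 in vector cells and 37.5, 48.7 and 39.9 in Sir2 cells at 12 h, without overlap. All vector arrays of 12 h lay below the filter of 31.071 on dim probe sets, which Sirt1 passed through the other groups, so no size of change is given. At 36 h it stood at 39.4, 19.6 and 36.9 in vector cells and 80.5, 69.2 and 35.8 in Sir2 cells, where the groups overlapped (0.77 ± 0.27 SE on the log2 scale, adjusted p = 0.106).

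In untreated cells the first comparison asks how the members changed as myoblasts differentiated. Gadd45a fell within 4 h of differentiation medium and then rose to its highest level at 48 h, Mdm2 was lower at 24 h, and Ccng1, Btg2 and Gadd45b did not pass the test at any time. Intensities are on the linear scale deposited by the authors, log2 changes are given with their standard error after a pseudocount was added, and a change was called at a Benjamini-Hochberg adjusted p under 0.05 over all 7453 probe sets tested in an arm. Against 0 h, 1 of the 5 tested members was called at 4 h (lower), where 2.05% of all probe sets were called, 1 at 12 h (lower, 5.23% of all), 2 at 24 h (1 higher and 1 lower, 12.9% of all) and 1 at 48 h (higher, 35.3% of all). Across the 5 times of the control series 2 of 5 members varied (Mdm2 and Gadd45a), where 40% of all probe sets did. The median change of the 5 members was -0.0256, -0.26, -0.0280 and -0.0704 at the 4 times, and that of all probe sets 0.0232, 0.0061, -0.0091 and 0.0069. The 4 comparisons share the arrays of 0 h.

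Gadd45a had intensities of 1104 and 1121 in growth medium and 392 and 172 after 4 h. At 12 h it stood at 405 and 467, at 24 h at 5627 and 5281, and at 48 h at 13071 and 15251. The values of 4 and 12 h lay below those of 0 h, those of 24 and 48 h above, and no group overlapped with that of 0 h. The log2 change against 0 h was -1.62 ± 0.22 at 4 h (adjusted p = 0.00324) and -1.13 ± 0.22 at 12 h (adjusted p = 0.0121). It was 2.16 ± 0.22 at 24 h (adjusted p = 3.95e-05) and 3.51 ± 0.22 at 48 h (adjusted p = 9.91e-08), and the variation across the control series had adjusted p = 8.70e-09. The fall at 12 h was no longer called without any 1 of its 4 arrays (adjusted p = 0.0577 to 0.0837), and at 4 and 12 h the call was lost when only the 4 arrays compared were fitted (adjusted p = 0.122 and 0.126). The summed intensity of the 8 muscle markers was 9859 and 10738 at 0 h and 10608 and 11648 at 4 h, which overlapped. It was 17777 and 18562 at 12 h, 35542 and 37437 at 24 h and 66711 and 72187 at 48 h. At 12 h the markers were thus higher than at 0 h, where Gadd45a was lower. The part of the markers in the result was not tested, and in bulk samples fewer cells of a type and less RNA per cell cannot be told apart.

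Mdm2 had 1761 and 1515 at 0 h, 1513 and 1630.1 at 4 h, 1119 and 1499 at 12 h, 1108 and 952 at 24 h and 1277 and 1200.4 at 48 h. The values of 12, 24 and 48 h lay below those of 0 h, and those of 4 h overlapped with them. Its log2 change at 24 h was -0.60 ± 0.16 (adjusted p = 0.0249), and across the series adjusted p = 0.0390. Without control replicate 1 of 0 h, replicate 2 of 0 h or replicate 3 of 24 h the adjusted p of the 24 h change was 0.178, 0.0573 and 0.172. The call across the series was lost without any 1 of the control arrays of 0, 4, 24 or 48 h (adjusted p = 0.0531 to 0.146), and with the replicate block (0.0919).

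Ccng1 had 1233 and 1491 at 0 h, 1405 and 1259 at 4 h, 1346 and 906 at 12 h, 1292 and 1365 at 24 h and 1523 and 1082 at 48 h. Each of its later groups overlapped with that of 0 h (adjusted p = 0.704 across the series). Btg2, the antiproliferative target, had 1414 and 1378 at 4 h, 1874 and 1689 at 12 h and 1859 and 1871 at 24 h. It had 1513 and 1334 at 0 h and 2045 and 1763 at 48 h (log2 change 0.39 ± 0.20, adjusted p = 0.160), without overlap. Gadd45b (161666_f_at) had 472 and 314 at 0 h, 567 and 794 at 4 h, 561 and 592 at 12 h, 255 and 438 at 24 h and 320.5 and 304 at 48 h. Its highest values were those of 4 and 12 h, above those of 0 h, and the variation across the series just missed the threshold (adjusted p = 0.0552). It passed with a stricter filter on dim probe sets (adjusted p = 0.0374), which would make it the third member to vary. Without replicate 3 of 24 h Gadd45b also passed, but Mdm2 no longer did.

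**Figure D1:**
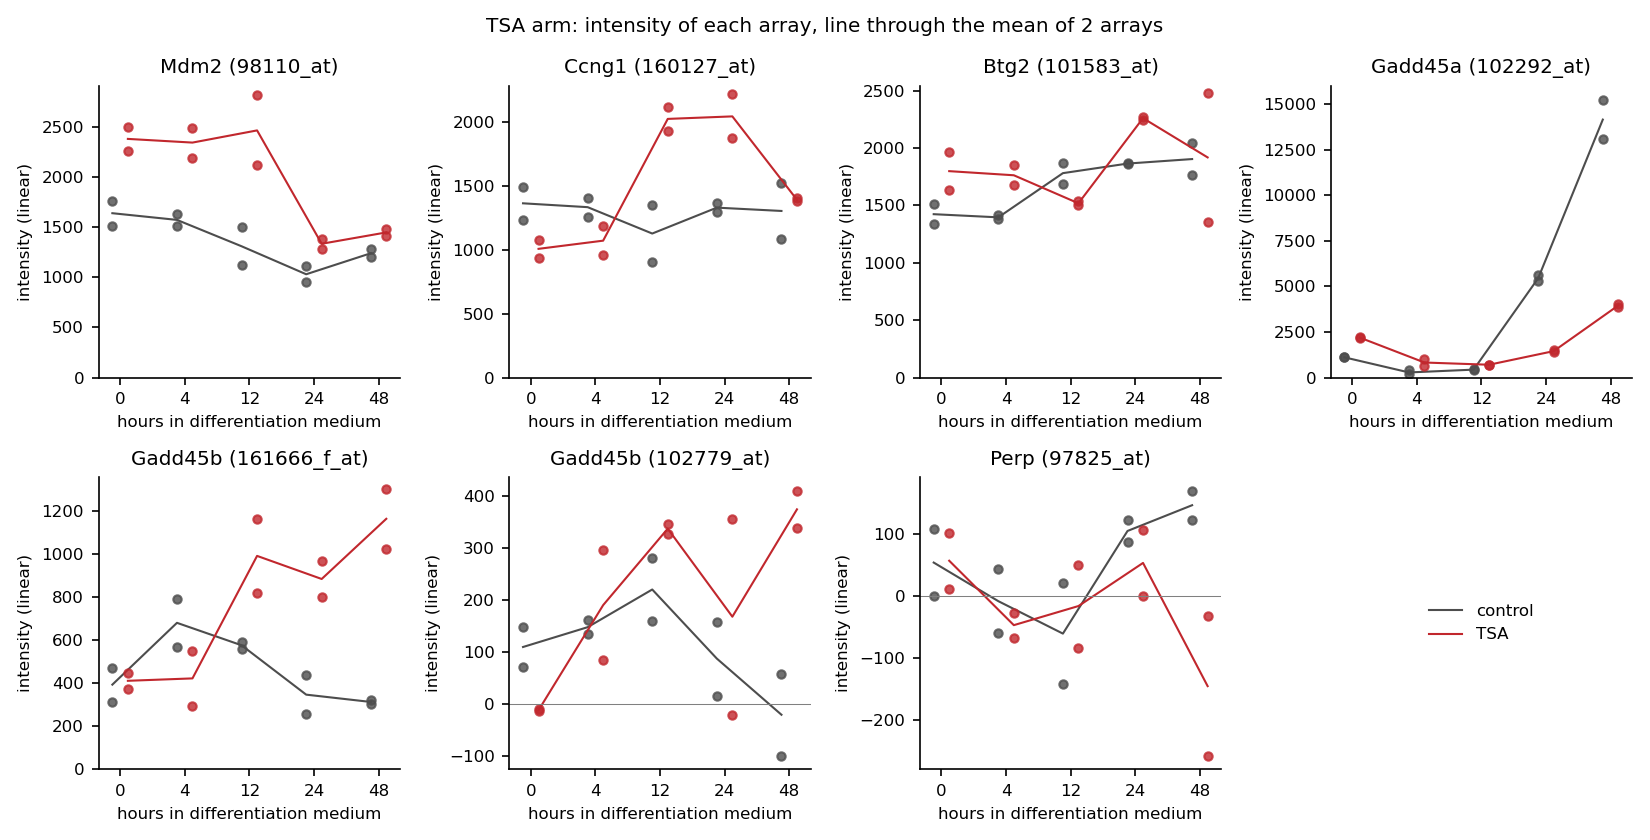
Intensity (linear scale) of each member probe set on the 20 arrays of the TSA arm against hours in differentiation medium, with grey points for control and red points for TSA, and lines through the mean of the 2 arrays of a group. Gadd45a reached 13071 and 15251 in control cells at 48 h and 3867 and 4054 with TSA, and the panel of Perp runs below 0.

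The comparison of TSA with control cells asks what inhibition of histone deacetylases did to the members at each time. Mdm2 was higher with TSA over the series, Gadd45a was higher at first and lower later, and Gadd45b was higher late. Ccng1 was higher at 12 h, and Btg2 was not called at any time. At 0 h 2 of the 5 tested members were called, both higher (Mdm2 and Gadd45a), where 17.9% of all probe sets were called. At 4 h the same genes were called, both higher, with 11.4% of all. At 12 h Mdm2 and Ccng1 were called, both higher, with 4.08% of all, and at 24 h Gadd45a (lower) and Gadd45b (higher), with 5.94% of all. At 48 h the calls were again Gadd45a (lower) and Gadd45b (higher), with 19.6% of all. In the mean over the 5 times 2 members were called, both higher (Mdm2 and Gadd45b), with 22.0% of all. The TSA effect differed between times for 3 members (Ccng1, Gadd45a and Gadd45b), with 22.2% of all. Within TSA-treated cells 4 of 5 members varied across the times (all but Btg2), with 36.2% of all. The median change of the 5 members was 0.31 at 0 h, 0.31 at 4 h, 0.65 at 12 h, 0.34 at 24 h, 0.10 at 48 h and 0.16 in the mean, and that of all probe sets 0, -0.0446, -0.0235, 0.0026, -0.0280 and -0.0306. The summed muscle markers were higher with TSA at 0 h (12131 and 12176 against 9859 and 10738), 4 h (15157 and 15525 against 10608 and 11648) and 12 h (21173 and 22218 against 17777 and 18562), without overlap. They overlapped at 24 h (36341 and 39042 against 35542 and 37437) and were higher with TSA at 48 h (83342 and 91487 against 66711 and 72187). Their part in the members' changes with TSA was not tested. Each time of TSA-treated cells is set against control arrays that also served the comparison of untreated cells.

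Mdm2, the ubiquitin ligase, had 2257 and 2500.3 with TSA at 0 h, 2491 and 2193 at 4 h, 2114 and 2813 at 12 h, 1286 and 1381 at 24 h and 1414 and 1479 at 48 h. At each of the 5 times both TSA arrays lay above both control arrays. The muscle markers were also higher with TSA at 0, 4, 12 and 48 h and overlapped at 24 h. Their part in these values was not tested. The log2 change was 0.50 ± 0.16 at 0 h (adjusted p = 0.0445), 0.54 ± 0.16 at 4 h (0.0484) and 0.85 ± 0.16 at 12 h (0.00894). It was 0.34 ± 0.16 at 24 h (0.286) and 0.20 ± 0.16 at 48 h (0.414), neither of which passed. Over the 5 times the mean change was 0.48 ± 0.07 (adjusted p = 3.43e-04, 10 arrays against 10), and it passed in all 29 alternatives (0.395 to 0.52). No difference of the effect between times was called (adjusted p = 0.244). The calls at 0 and 4 h were lost without any 1 of their arrays (adjusted p = 0.0788 to 0.256 and 0.0839 to 0.237), and that at 12 h without control replicate 1 (0.0731) or TSA replicate 2 (0.118). In the order of its levels the TSA groups of 12, 0 and 4 h stood first and overlapped with each other, and all of them lay above the 10 control arrays.

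Ccng1, cyclin G1, had 938 and 1075 with TSA at 0 h, 1184 and 956 at 4 h, 2115 and 1928 at 12 h, 1869 and 2214 at 24 h and 1400.2 and 1379.9 at 48 h. At 0 and 4 h the TSA arrays lay below control, at 12 and 24 h above, and at 48 h the groups overlapped. The log2 change was -0.39 ± 0.19 at 0 h (adjusted p = 0.200), -0.29 ± 0.19 at 4 h (0.405), 0.79 ± 0.19 at 12 h (0.0348), 0.57 ± 0.19 at 24 h (0.113) and 0.10 ± 0.19 at 48 h (0.755). The effect differed between times (adjusted p = 0.0185), and the mean over times was 0.16 ± 0.08 (adjusted p = 0.219). At 12 h the call was lost without control replicate 2 (adjusted p = 0.298), TSA replicate 1 (0.199) or TSA replicate 2 (0.129), and the difference between times without TSA replicate 1 of 12 h (0.0513). Of the 9 pairs of neighbours in the order of its group levels 8 overlapped. The 1 gap lay between the TSA groups of 12 and 24 h, which were highest, and all other groups. The share over all probe sets is not given here, so this count cannot be read as particular to Ccng1.

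Btg2 had 1965 and 1633 with TSA at 0 h, 1677 and 1849 at 4 h, 1501 and 1536 at 12 h, 2274 and 2248 at 24 h and 1354 and 2483 at 48 h. The TSA arrays lay above control at 0, 4 and 24 h and below at 12 h, and the 2 TSA arrays of 48 h stood on either side of their controls. Its log2 change lay between -0.21 and 0.31, with a mean of 0.12 ± 0.09 (adjusted p = 0.368). Without TSA replicate 1 of 48 h, the lower array of that group, the mean was called (0.21, adjusted p = 0.0222). Without replicate 2 of that group the difference of the effect between times was called (adjusted p = 0.0291, against 0.449 with all arrays). The variation across the times in TSA-treated cells was called without either of them (adjusted p = 0.0138 and 0.0165, against 0.302).

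Gadd45a had 2219 and 2167 with TSA at 0 h, 1003 and 651 at 4 h, 693 and 717 at 12 h, 1390.0 and 1515 at 24 h and 3867 and 4054 at 48 h. The TSA arrays lay above both control arrays at 0, 4 and 12 h and below both at 24 and 48 h. The log2 change was 0.90 ± 0.22 at 0 h (adjusted p = 0.0112), 1.23 ± 0.22 at 4 h (0.00252) and 0.56 ± 0.22 at 12 h (0.213, not called). It was -1.81 ± 0.22 at 24 h (adjusted p = 2.67e-04) and -1.80 ± 0.22 at 48 h (1.05e-04). The effect differed between times (adjusted p = 1.95e-05) in all 29 alternatives, and the mean over times, -0.19 ± 0.10, was not called (adjusted p = 0.200). With 4 times the pseudocount it was called (-0.30, adjusted p = 0.00210), and without control replicate 2 of 4 h (adjusted p = 0.0258). At 0 h the call was lost on leaving out any 1 array (adjusted p = 0.0524 to 0.0655), and at 4, 24 and 48 h only when the 4 arrays compared were fitted alone (0.169, 0.0808 and 0.0614). TSA-treated cells varied across the times (adjusted p = 1.81e-05), from 651 at the lowest to 4054 at the highest. The muscle markers were higher with TSA at 0, 4, 12 and 48 h and overlapped at 24 h, and their part in these values was not tested. In the order of its levels Gadd45a had 8 of 9 pairs of neighbours apart, and only the TSA groups of 4 and 12 h overlapped. The share over all probe sets is not given here, so this count cannot be read as particular to Gadd45a.

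Gadd45b (161666_f_at) had 448 and 374 with TSA at 0 h, 295 and 549 at 4 h, 818 and 1166 at 12 h, 966 and 803 at 24 h and 1305 and 1025 at 48 h. The groups overlapped at 0 h, TSA lay below control at 4 h and above it from 12 h on. The log2 change was 0.06 ± 0.26 at 0 h (adjusted p = 0.918), -0.57 ± 0.26 at 4 h (0.198), 0.65 ± 0.26 at 12 h (0.229), 1.10 ± 0.26 at 24 h (0.0251) and 1.52 ± 0.26 at 48 h (0.00138). Its mean was 0.55 ± 0.12 (adjusted p = 0.00400) and its effect differed between times (0.00678), each in all 29 alternatives run on this probe set. The call at 24 h was lost without control replicate 2 (adjusted p = 0.183), TSA replicate 2 (0.138) or TSA replicate 3 (0.0723), and the calls at 24 and 48 h when only the 4 arrays compared were fitted (0.235 and 0.0770). The suffix of this probe set marks it as one whose probes may also match related sequences. The dimmer probe set, 102779_at, lay between -99.0 and 409 in the arm and was at or below 0 on 4 of 20 arrays. Of its 10 group means 6 lay above the filter, 4 of them with TSA. On this dimmer probe set neither the mean over times (adjusted p = 0.333) nor a difference of the effect between times (0.146) was called. It had 58.6 and -99.0 in control and 409 and 338 with TSA at 48 h, without overlap, and no fold is given against values below 0. At 0 h both TSA arrays (-13.9 and -9.19) lay below 0 and both control arrays (72.2 and 147) above. At 4, 12 and 24 h its TSA arrays had 84.9 and 295, 327 and 346, and 356 and -20.5. Of these times only 12 h, with 159 and 281 in control, had no overlap with control.

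**Figure D2:**
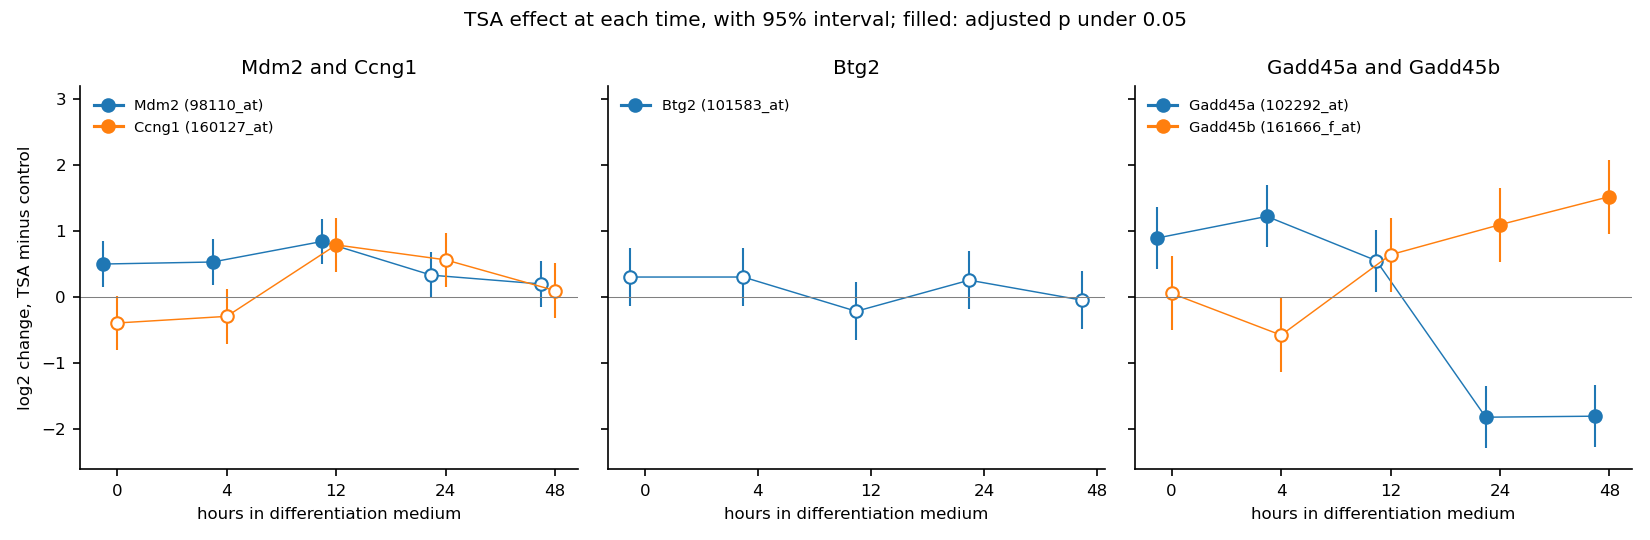
Log2 change of TSA against control (vertical axis) at each time (horizontal axis, hours), with 95% intervals from the fit, for Mdm2, Ccng1, Btg2, Gadd45a and the brighter Gadd45b probe set, filled where the adjusted p was under 0.05. Gadd45a runs from 1.23 at 4 h to -1.81 at 24 h, while Gadd45b (161666_f_at) runs from -0.57 at 4 h to 1.52 at 48 h.

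Perp, the membrane protein, lay between -257 and 169 in the TSA arm, at or below 0 on 8 of 20 arrays, and did not pass the filter there. In control cells it had 123 and 86.2 at 24 h and 169 and 123 at 48 h, and with TSA -33.1 and -257 at 48 h, and no fold is given against values below 0. No member probe set measured p53, and 2 probe sets, 101617_s_at and 101618_r_at, were annotated to the pseudogene Trp53-ps. Whether they also detect p53 mRNA was not tested. Neither was called for TSA at any time (adjusted p = 0.333 or more), and the mean changes over times were 0.0733 ± 0.11 and -0.0528 ± 0.09. In control cells at 48 h against 0 h their changes had opposite signs, -0.67 ± 0.26 (adjusted p = 0.0592) and 0.59 ± 0.21 (adjusted p = 0.0479).

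The Sir2 arm asks how the members differed between cells with Sir2 and cells with the empty vector. Gadd45b was lower with Sir2 at 12 h, and no other member was called in either time or in their mean. At 12 h 1 of the 6 tested members was called (lower), where 5.55% of all probe sets were called. At 36 h limma called 0 of 6, with 9.26% of all probe sets called (1739 at an unadjusted p under 0.05) and unadjusted p of 0.0298 for Mdm2 and 0.04995 for Btg2 among the members. In the mean over the 2 times 1 of 6 was called (lower), with 12.6% of all, and a difference of the Sir2 effect between the times was called for 0 of 6, with 1.76% of all (1100 at an unadjusted p under 0.05). Among the members Btg2 (0.50 ± 0.16, unadjusted p = 0.0106, adjusted 0.161) and Gadd45b (0.67 ± 0.20, unadjusted p = 0.00580, adjusted 0.124) had the smallest p for this difference. The median change of the 6 members was -0.27 at 12 h, 0.0847 at 36 h and -0.0945 in the mean, and that of all probe sets 0.0162, -0.0206 and -0.0063.

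Gadd45b (161666_f_at) had 236, 185 and 206 in vector cells and 121, 127 and 104 in Sir2 cells at 12 h, with no overlap. At 36 h it had 124, 169 and 152 in vector cells and 143, 119.6 and 144 in Sir2 cells, which overlapped. The log2 change was -0.79 ± 0.14 at 12 h (adjusted p = 0.00705), -0.12 ± 0.14 at 36 h (0.671) and -0.45 ± 0.10 in the mean (0.0116). The changes at 12 h and in the mean were called in all 15 and all 20 alternatives run on this probe set. The dimmer probe set, 102779_at, had 163, 112 and 165 against 119.9, 119 and 113 at 12 h, with overlap through vector replicate 2 (-0.28 ± 0.14, adjusted p = 0.323), and passed without that array (adjusted p = 0.0487). At 12 h the summed muscle markers were 8081 to 8693 in vector cells and 4920 to 5646 in Sir2 cells, and at 36 h 15911 to 16601 and 12328 to 14049. Their part in the result was not tested.

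None of the other members was called between vector and Sir2 cells. Perp had 63.2, 56.6 and 52.4 in vector cells and 35.0, 32.6 and 43.4 in Sir2 cells at 12 h, without overlap, and its change of -0.53 ± 0.16 was not called (adjusted p = 0.0772). Its mean over times was -0.35 ± 0.11 (adjusted p = 0.0648), and it passed without Sir2 replicate 3 of 12 h (0.0470) or Sir2 replicate 1 of 36 h (0.0222). Gadd45a had 337, 303 and 255 against 248, 223 and 247 at 12 h (-0.30 ± 0.12, adjusted p = 0.203), without overlap. At 36 h it had 2352, 2355 and 2011 against 2158, 2000.0 and 2164 (-0.0845 ± 0.12, adjusted p = 0.726, 95% interval -0.35 to 0.18), with overlap. At 12 h Mdm2 had 202, 182 and 170.3 against 166, 180.1 and 231, which overlapped (0.044 ± 0.21, adjusted p = 0.950). It had 130.3, 216 and 126 against 238, 267 and 175 at 36 h (0.52 ± 0.21, adjusted p = 0.160), where vector replicate 2 overlapped with the Sir2 arrays, and without it the change was called (0.76, adjusted p = 0.0361). Btg2 had 361, 343 and 379 against 435, 415 and 446 at 36 h, without overlap (0.25 ± 0.12, adjusted p = 0.214), and 436, 365 and 487 against 371, 372 and 334 at 12 h (-0.24 ± 0.12, adjusted p = 0.297). Ccng1 had 161, 147 and 157 against 218, 182 and 176 at 36 h, without overlap (0.29 ± 0.17, adjusted p = 0.328).

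**Figure D3:**
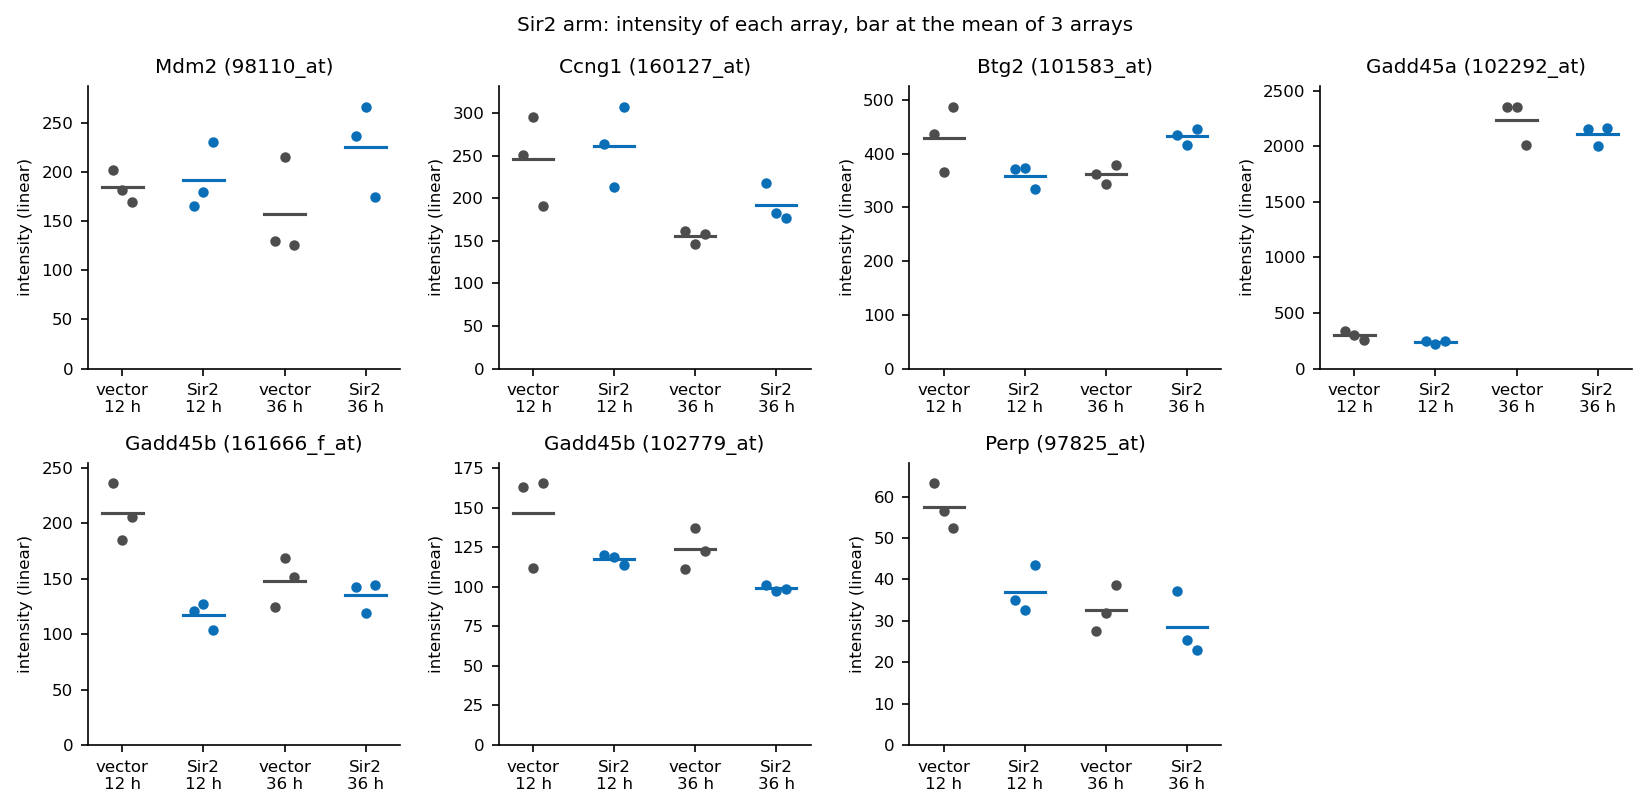
Intensity (linear scale, from 0) of each member probe set on the 12 arrays of the Sir2 arm, with grey points for vector and blue points for Sir2 at 12 and 36 h and a bar at the mean of 3 arrays. Gadd45b (161666_f_at) at 12 h has 185 or more in vector cells and 127 or less in Sir2 cells, and Gadd45a differs between 12 and 36 h in both kinds of cell.

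The comparison of 36 h with 12 h within each kind of cell gave the time course of the Sir2 arm. In vector cells 4 of 6 members were called, Gadd45a higher and Ccng1, Gadd45b and Perp lower, where 32.1% of all probe sets were called. In Sir2 cells 1 of 6 was called, Gadd45a higher, where 28.5% of all were. Gadd45a changed by 2.88 ± 0.12 in vector cells (adjusted p = 1.35e-08) and 3.09 ± 0.12 in Sir2 cells (4.72e-09), in all 15 alternatives of each. Ccng1 had 251, 296 and 191 at 12 h and 161, 147 and 157 at 36 h in vector cells (-0.62 ± 0.17, adjusted p = 0.0148), and 264, 213 and 307 against 218, 182 and 176 in Sir2 cells (-0.42 ± 0.17, 0.0831). The change of Ccng1 in vector cells was lost without vector replicate 2 of 12 h (adjusted p = 0.0652). Perp had 63.2, 56.6 and 52.4 and then 27.5, 31.8 and 38.7 in vector cells, without overlap (-0.68 ± 0.16, adjusted p = 0.00641). At 36 h its vector mean of 32.6 lay close to the filter of 31.071 on dim probe sets, and its Sir2 mean of 28.4 lay below it. The size of its changes over time is therefore uncertain. Gadd45b in vector cells changed by -0.47 ± 0.14 (adjusted p = 0.0229), a call lost without vector replicate 1 of 12 h (0.0879) or of 36 h (0.0960), and in Sir2 cells by 0.20 ± 0.14 (0.340). None of these differences between the 2 kinds of cell was itself called. Btg2 in Sir2 cells (0.26 ± 0.12, adjusted p = 0.116) passed with median centring (0.34, adjusted p = 0.0463), and in vector cells (-0.24 ± 0.12, 0.144) without vector replicate 2 of 12 h (-0.345, 0.0449). In Sir2 cells Ccng1 passed in 2 alternatives and Perp, at -0.31 ± 0.16 (adjusted p = 0.171), without Sir2 replicate 1 of 36 h (-0.47, 0.0447).

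Other genes of the p53 pathway came from a list of 94 in 7 roles, of which 62 were measured, 51 tested with TSA and 53 with Sir2. In the mean TSA effect 18 of 51 were called, 13 higher and 5 lower, where 22.0% of all probe sets were called, with a median of 0.0258 over the list and -0.0306 over all probe sets. Secreted and membrane targets had 5 of 8 higher and 0 lower, among them Igfbp3, which binds insulin-like growth factors (2.76 ± 0.08, adjusted p = 3.59e-10), and the chemokine gene Cx3cl1 (0.74 ± 0.07, 1.35e-05). Of the same 8 at 48 h Igfbp3 was higher and Vcan, a matrix proteoglycan gene that was higher in the mean (0.52 ± 0.08, adjusted p = 3.60e-04), was lower (-2.08 ± 0.17, 6.205e-06). The median of this role was 0.46 in the mean and -0.0044 at 48 h. Cell cycle targets had 2 of 8 higher, Cdkn1a among them, and 2 lower, among them the cyclin gene Ccng2 (-0.315 ± 0.09, adjusted p = 0.0263). Apoptosis targets had 2 of 9 higher (among them Phlda3, 0.34 ± 0.05, adjusted p = 1.82e-04) and 1 lower, the myelin protein gene Pmp22 (-0.65 ± 0.06, 8.34e-06). Regulators had 2 of 18 higher, the deacetylase gene Hdac1 (0.58 ± 0.09, adjusted p = 6.90e-04) among them, and 1 lower (the nucleolar protein gene Npm1, -0.39 ± 0.07, 0.00227). Of DNA repair targets 1 of 2 was higher (the replication clamp gene Pcna, 0.35 ± 0.06, 0.00147), and of metabolic and antioxidant targets 1 of 4 was lower (Ephx1, epoxide hydrolase, -1.14 ± 0.23, 0.00309).

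At single times the pathway list had 12 of 51 called with TSA at 0 h (7 higher, 5 lower), 8 at 4 h (6 and 2), 6 at 12 h (5 and 1), 11 at 24 h (7 and 4) and 13 at 48 h (6 and 7). Among all probe sets the shares called at these times were 17.9%, 11.4%, 4.08%, 5.94% and 19.6%. In untreated cells 28 of 51 were called at 48 h against 0 h, 12 higher and 16 lower, with 35.3% of all probe sets called. The regulators called there were all lower (5 of 18, among them Hdac1, -2.30 ± 0.21, adjusted p = 3.66e-06, and Chek1, the checkpoint kinase gene, -0.97 ± 0.18, 0.00116). In the Sir2 arm 9 of 53 were called at 12 h (6 higher, 3 lower), 6 at 36 h (5 and 1) and 11 in the mean (7 and 4), with 5.55%, 9.26% and 12.6% of all probe sets called. Sirt1, the check of the Sir2 labels, is on the list and was among the higher calls at 12 h and in the mean. As the counterpart of the introduced gene it cannot be read there as a response of the pathway. The calls of smallest p in that mean were Ephx1 (2.11 ± 0.18, adjusted p = 1.18e-05) and the receptor gene Epha2 (1.29 ± 0.13, 4.41e-05). In vector cells 18 were called at 36 h against 12 h, 3 higher and 15 lower, with 32.1% of all probe sets called. Sirt1 was among these 3, with all vector arrays of 12 h below the filter. The third family gene, Gadd45g, was higher with TSA in the mean (0.28 ± 0.05, adjusted p = 0.00233). With Sir2 it was lower at 12 h (-0.58 ± 0.11, adjusted p = 0.00754) and higher at 36 h (0.39 ± 0.11, 0.0413), a difference between times that was called (0.96 ± 0.15, 0.0120). Cdkn1a was higher with TSA in the mean (94881_at, 0.50 ± 0.08, adjusted p = 7.35e-04) and lower with Sir2 (-0.52 ± 0.07, 5.36e-04), and its other probe set, 98067_at, gave 1.10 ± 0.24 (0.00541) and -0.17 ± 0.13 (0.491).

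**Figure D4:**
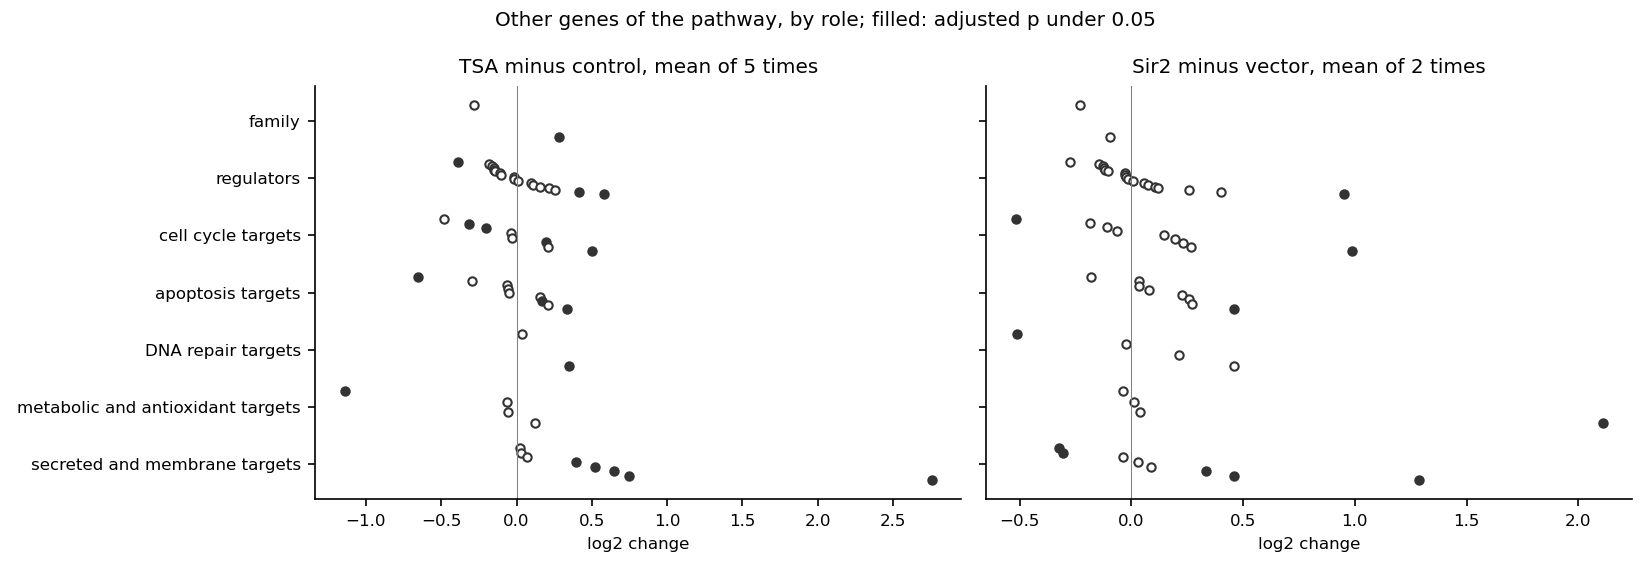
Log2 change (horizontal axis) of the other p53 pathway genes by role (vertical axis), for the mean of TSA against control over 5 times at left and of Sir2 against vector over 2 times at right, filled where the adjusted p was under 0.05. At left the secreted and membrane targets hold 5 filled points, all above 0, with Igfbp3 at 2.76.

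The genes whose level followed a member most closely were named by the Pearson correlation of the means of the 10 TSA-arm groups on the log2 scale, as a description of groups that share arrays and treatment. For Gadd45a these were Acyp1 (r = 0.985), Sars (0.972) and Surf1 (0.969). Mdm2 was closest to Eif2s3x (0.927), Ggct (0.926) and Ssu72 (0.925). Ccng1 had Ski (0.909), Pik3ca (0.877) and Pigq (0.806), and Btg2 had Col18a1 (0.895), Clta (0.893) and Pmel (0.877). Gadd45b was closest to Slco3a1 (0.900), Dnajb11 (0.896) and Cxxc5 (0.867). No other member was among the 3 genes closest to any of the 5 members. With only 3 places for all tested genes, this does not show whether members moved together.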

How the data were processed

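RNA of C2C12 cells was measured on 32 Affymetrix MG-U74Av2 arrays, and for each array the authors deposited a linear-scale intensity of every probe set. Per the submitters' processing notes MAS5 was used in the Sir2 arm, and none of the sources used here names the tool of the TSA arm. TSA-arm values can be negative, and the arms were scaled differently, so each was fitted alone. Of 12488 probe sets 66 control probe sets were left out; 10833 of the rest named 1 gene, 396 several and 1193 none.

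Values below 0 were set to 0, a pseudocount was added (137.69 in the TSA arm, 8.8192 in the Sir2 arm), log2 was taken, and probe sets with a mean under 144.86 or 31.071 were left out. A fold change on this scale understates changes of dim genes. All groups of an arm entered 1 fit in limma 3.58.1 (R 4.3.3, lmFit and eBayes), with Benjamini-Hochberg adjustment over the 7453 probe sets tested and a threshold of 0.05. The fit was tested on simulated data. Tables, promoter windows and plots used Python 3.11.15, numpy 2.4.6, pandas 2.3.3 and matplotlib 3.10.9. Alternatives were quantile normalization, median centring, other pseudocounts and filters, a trended robust variance, the replicate number as a block, a title suffix as covariate, only the groups compared, the dimmest probe set of a gene, and each array left out in turn.

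Every member was named on each probe set annotated to it alone, and other pathway genes were named up to 2 per role by smallest p. The members and lists were chosen with earlier results of these data known.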

Additional observations from a re-analysis of the deposited data

Results flagged for a closer look

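For 3 of the 5 tested members the effect of TSA differed between the times by the test of the difference itself. Of all probe sets 22.2% were called in this test. The adjusted p of that test was 1.95e-05 for Gadd45a, whose change went from 1.23 at 4 h to -1.81 at 24 h on the log2 scale. It was 0.00678 for Gadd45b (161666_f_at), from -0.57 at 4 h to 1.52 at 48 h, and 0.0185 for Ccng1, from -0.39 at 0 h to 0.79 at 12 h. The call of Ccng1 was lost without TSA replicate 1 of 12 h. The dimmer Gadd45b probe set, 102779_at, was not called in the same test (adjusted p = 0.146). The groups of 2 and 3 arrays were too small to test for a single array far from the others.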

How the results depend on the processing

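Over all 120 results on member probe sets that were tested, 35 of them called, 1872 alternative values kept direction and side of the threshold, 24 passed it newly, 77 lost it and 40 changed sign. The numbers of called members moved as follows, and the cause was not tested. When only the groups compared were fitted, TSA against control had 1 call at 0 h and 0 at 4, 12, 24 and 48 h, and control cells had 0 at 4 h, 0 at 12 h and 1 at 24 h. TSA at 0 h had 1 call with median centring, 1 with the smaller pseudocount and 1 with no filter. TSA at 4 h had 1 with the smaller pseudocount, 1 with no filter and 1 with the title suffix as covariate, which also left 1 member varying across the control series. With the dimmest probe set of a gene there was 1 call for TSA at 24 h, 1 in its mean, and 0 for Sir2 at 12 h and 0 in its mean. Sir2 cells at 36 h against 12 h had 2 with median centring and 2 with a stricter filter.

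Leaving out 1 array gave 0 calls for TSA at 0 h, 1 at 4 h, 0 to 1 at 12 h, 1 to 2 at 24 h, and 2 to 3 in the mean, with 2 to 4 members whose effect differed between times. It gave 0 for control cells at 12 h, 1 to 2 at 24 h, 1 to 2 across the series, and 4 to 5 across the TSA series. For Sir2 it gave 0 to 1 at 36 h, 1 to 2 in the mean, 1 to 2 in Sir2 cells and 3 to 4 in vector cells over time. Where this left 1 array in a group, that array was assumed to vary like the other groups. The shares of all probe sets called in these refits are not given here, so these counts cannot be read as particular to the members.

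Deviations of same-numbered arrays correlated between -0.0997 and 0.228 in the TSA arm and between -0.314 and 0.116 in the Sir2 arm. In groups of 2 the deviations mirror each other, so each time of the TSA arm gives 1 value. These values do not decide whether replicate numbers pair the samples. With the replicate block TSA at 0 h had 1 call, TSA at 4 h 1, control cells at 24 h 1 and the control series 1.

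Counts over all probe sets also moved. With only the groups compared they were 81 in place of 846 for TSA at 4 h, 0 for 304 at 12 h, 9 for 443 at 24 h and 20 for 1464 at 48 h. In control cells they were 0 for 153 at 4 h, 2 for 390 at 12 h, 256 for 959 at 24 h and 1534 for 2630 at 48 h, and for Sir2 at 12 h 208 for 414. The replicate block gave 585 for 959 in control cells at 24 h and 57 for 131 for the change of the Sir2 effect. For that change no filter gave 46 and a trended robust variance 207, and no filter gave 243 for Sir2 at 12 h. Median centring moved the share of higher calls from 52.9% to 38.0% in control cells at 4 h, from 50.0% to 36.6% for Sir2 at 12 h, from 65.2% to 75.6% at 36 h, from 72.5% to 85.1% for its change and from 40.9% to 53.2% in Sir2 cells over time. Groups of 2 and 3 arrays and dim probe sets, such as Perp and 102779_at, limit what could be called.

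The 40 changes of sign belonged to 16 results that were not called (adjusted p of 0.755 or more), and none of the values that changed sign was called. On the log2 scale, with 1 array left out, TSA against control ran from -0.16 to 0.28 for Gadd45b (161666_f_at) at 0 h, from -0.36 to 0.60 for 102779_at at 4 h and from -0.63 to 1.21 at 24 h, from -0.12 to 0.325 for Ccng1 at 48 h and from -0.45 to 0.36 for Btg2 at 48 h. Control cells at 4 h ran from -0.15 to 0.047 for Mdm2, from -0.15 to 0.099 for Ccng1 and from -0.11 to 0.0595 for Btg2. At 24 h they ran from -0.15 to 0.097 for Ccng1, from -0.42 to 0.13 for Gadd45b (161666_f_at) and from -0.66 to 0.28 for 102779_at, which had 0.43 with the replicate block and 0.11 with the title suffix as covariate. At 48 h Ccng1 ran from -0.29 to 0.15. Sir2 at 12 h ran from -0.0899 to 0.14 for Mdm2, with -0.0082 under median centring, and from -0.073 to 0.23 for Ccng1. The Sir2 mean ran from -0.0499 to 0.051 for Btg2, with -0.0175 under quantile normalization. The change of the Sir2 effect ran from -0.10 to 0.16 for 102779_at, with 0.038 under quantile normalization, 0.087 under median centring and 8e-04 with the larger pseudocount.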
